A study of Mus musculus with 6 samples.

Results

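The clustered protocadherins are a family of cell-surface adhesion proteins encoded by the alpha, beta and gamma gene arrays. Every gene whose symbol carries the alpha, beta or gamma array prefix followed by a number was taken, which gave 58 of the 22298 genes of the deposited table. The family was chosen by its symbols after the fold changes between these aging and control libraries had been seen, so its counts and fold changes between the groups are descriptions. The alpha array supplied 14 of them, the beta array 22 and the gamma array 22. Of the 58 members, 42 passed the filter on low counts used for testing, and these were 20 beta and 22 gamma genes and no alpha gene.

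Each clustered protocadherin is a single-pass transmembrane protein of the cadherin superfamily whose extracellular domains bind matching proteins on neighbouring cells. In the alpha and gamma arrays, each gene contributes its own large first exon with its own promoter, and this variable exon is spliced to small constant exons that all members of the array share and that encode the common cytoplasmic tail. The beta genes lack such constant exons. The family is best known from neurons, in which CTCF and cohesin take part in choosing the promoters used by each cell and the resulting set of surface proteins serves in self-recognition. The C-type members at the ends of the alpha and gamma arrays differ from the others in being less subject to random promoter choice.

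The data were bulk RNA sequencing of liver sinusoidal endothelial cells, the fenestrated endothelium of the hepatic sinusoid, from wild-type mice, in 3 libraries labelled control and 3 labelled aging. The control libraries were replicates 1, 2 and 3, and the aging libraries were replicates 2, 3 and 5. All libraries carried the genotype label Wildtype, and no treatment, transgene, strain or sex was given. The age labels ran against the group names, because the control libraries carried an age of 24 months and the libraries titled aging carried an age of 8 weeks. Higher and lower below therefore mean in the aging-labelled libraries against the control-labelled ones, and the age behind each direction was not resolved. The labels did not say whether the libraries of a group came from separate mice, so each p-value rests on the spread among the 6 libraries at hand, which may be technical.

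Total counts ranged from 15999220 to 17871220 per library. All 8 markers of sinusoidal endothelium and all 4 pan-endothelial markers were detected and none passed the test between groups. The scavenger receptor gene Stab2 stood at 5812 ± 862 CPM (counts scaled to library size) in control and 4697 ± 276 CPM in aging libraries (SD, n = 3 each). Lyve1 was 614 ± 57 CPM in control and 258 ± 198 CPM in aging libraries (log2 fold change -1.25, edgeR adjusted p 0.207). Gpr182, Clec4g and Fcgr2b had positive log2 fold changes and the others of the 8 negative ones. The CPM values of the groups did not overlap for 4 of the 8 sinusoidal and 1 of the 4 pan-endothelial markers, beside 38% of all tested genes. Over all tested genes, edgeR called 7.22% higher and 5.59% lower. Genes of neutrophils moved with the groups. All 5 of the neutrophil list were called higher in the aging libraries by edgeR, and their summed level was at most 450 CPM in the control libraries and 1493 to 4028 CPM in the aging libraries. Of 8 stellate cell and fibroblast genes 3 were called lower, and the summed level of the 8 was 45.2 to 56.6 CPM in control and 23.7 to 28.2 CPM in aging libraries. Of 5 hepatocyte genes 1, Tat, was called lower (log2 fold change -2.30, edgeR adjusted p 0.00444). Of the others, Alb and Apoa1 had log2 fold changes of 0.03 and 0.12, and Ttr and Serpina1c of -0.004 and -0.63. The summed level of the 5 was 615 to 775 CPM in control and 595 to 692 CPM in aging libraries, with overlap. No gene of the cholangiocyte, mesothelium and macrophage lists was called. Of 7 neuronal genes 3 passed the filter and 1, Tubb3, was called higher (log2 fold change 1.43, edgeR adjusted p 0.0362), while Snap25 and Elavl4 had no count in any library. The other tested neuronal genes, Rbfox3 and Syt1, had log2 fold changes of -0.41 and -1.02 and were not called (edgeR adjusted p 0.184 and 0.272). Of 7 genes of Schwann cells and glia 3 passed the filter and 1, Cdh19, was called higher (log2 fold change 3.41, edgeR adjusted p 0.0192), while Sox10 had no count. With 1 library left out, the edgeR adjusted p reached 0.131 for Tubb3 and 0.0886 for Cdh19, the highest values without control replicate 2. The summed level was 7.75 to 8.997 CPM in control and 6.27 to 9.16 CPM in aging libraries for the neuronal list, and 14.2 to 28.5 CPM and 35.3 to 62.8 CPM for the glial list. Most of the glial sum was Mbp, at 18.1 ± 6.97 CPM in control and 34.2 ± 15.8 CPM in aging libraries, which was not called (edgeR adjusted p 0.172). The part of these other cells in the protocadherin values was not tested, and in bulk RNA fewer cells of a type and less RNA per cell cannot be told apart.

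The gamma array carried most protocadherin signal, the beta array a smaller share and the alpha array almost none. Summed gamma FPKM (fragments scaled by transcript length and library size, computed by the authors) was 111.11, 125.89 and 120.1 in the control libraries and 99.11, 108.97 and 117.64 in the aging libraries. The means were 119.03 ± 7.45 and 108.57 ± 9.27 (SD, n = 3 each), a log2 ratio of -0.13, and the groups overlapped. Summed beta FPKM was 27.28, 30.97 and 32.75 in control and 33.15, 37.36 and 35.84 in aging libraries. The beta sums did not overlap and gave a log2 ratio of 0.22, but the same sums in CPM, at 137.9 ± 15.4 and 158.95 ± 9.03, did overlap. Gamma genes held 78.5 to 80.3% of all clustered protocadherin FPKM in the control libraries and 74.4 to 76.5% in the aging libraries.

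**Figure D1:**
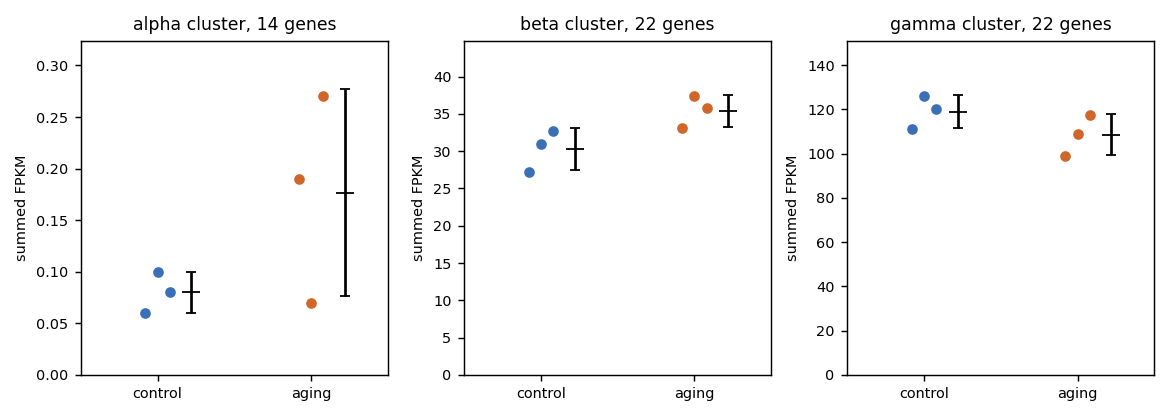
Summed FPKM of the alpha, beta and gamma arrays in each library, with points for libraries and a bar for the group mean ± SD (n = 3). The gamma sums lie between 99.11 and 125.89 and overlap, the beta sums lie between 27.28 and 37.36 without overlap, and the alpha sums reach at most 0.27.

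The arrays also differed in how well reads can be assigned to a member, judged from the GENCODE M21 transcripts. In the gamma array, 41.7 to 66.8% of each member's longest transcript consisted of exon bases shared with other members, and in the alpha array 48.6 to 54.9%. Beta transcripts shared no exon bases except for Pcdhb21 and Pcdhb22. The median share of stretches of 75 bases found in no other member was 98.8% for beta, 55.5% for gamma and 42.6% for alpha transcripts. Reads from the constant exons of an array can thus be split between its members by the counting. Summed counts of an array are unaffected by that split, but summed FPKM also depends on the length of the transcript that receives the reads. In CPM, the gamma sums were 551.6 ± 49.2 in control and 499.5 ± 61.0 in aging libraries (SD, n = 3 each), with overlap and a log2 ratio of -0.14. The span of a gene on the opposite strand, introns included, overlapped an exon of 15 members. The sources used here do not give the strand setting of the counting, so any opposite-strand reads on those exons cannot be told apart.

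Alpha transcripts were close to undetected. The 14 alpha genes together received 65 counts over all 6 libraries, and 6 of them had no count in any library. Their summed FPKM was 0.06, 0.1 and 0.08 in control and 0.19, 0.07 and 0.27 in aging libraries, which overlapped. At this depth 3 counts correspond to 0.169 to 0.189 CPM, and differences between alpha genes were not detectable. The C-type member Pcdhac2 had the most reads, with counts of 0, 2 and 8 in control and 14, 4 and 5 in aging libraries, and its neighbour Pcdhac1 had none. No alpha gene was tested.

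In the beta array, the members from Pcdhb4 to Pcdhb14 were higher and those from Pcdhb15 to Pcdhb22 mostly lower in the aging libraries. This division of the array was chosen after the values were seen, so it is a description with no test. All 11 genes of the first stretch had a positive log2 fold change, with a median of 0.71, and in 10 of them the CPM values of the groups did not overlap, beside 38% of all tested genes. Their summed FPKM was 13.67, 15.14 and 15.59 in control and 21.82, 24.75 and 21.96 in aging libraries. They made up 47.6 to 50.1% of beta FPKM in the control libraries and 61.3 to 66.2% in the aging libraries. Of the 8 genes from Pcdhb15 to Pcdhb22, 7 had a negative log2 fold change, with a median of -0.35. Their summed FPKM was 13.23, 15.25 and 16.87 in control and 11.17, 12.23 and 13.67 in aging libraries, with overlap. Over all 13096 tested genes the median log2 fold change was -0.01 and 49.3% were positive.

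Pcdhb9 (ENSMUSG00000051242) gave the smallest adjusted p of the family. Its FPKM was 1.12, 1.4 and 1.23 in control and 2.33, 2.48 and 2.53 in aging libraries, and each aging value exceeded every control value. The log2 fold change was 1.00 ± 0.17 (SE), with an adjusted p of 0.0139 by edgeR's quasi-likelihood test with Benjamini-Hochberg adjustment over all tested genes. Pcdhb11 (ENSMUSG00000051486) had an FPKM of 1.4, 1.55 and 1.24 in control and 2.19, 2.9 and 2.57 in aging libraries. Its groups were again separate, with a log2 fold change of 0.91 ± 0.17 and an edgeR adjusted p of 0.0161.

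Pcdhb13 (ENSMUSG00000047307) stood at 0.74, 0.38 and 0.59 FPKM in control and at 1.1, 1.21 and 1.24 FPKM in aging libraries. The control libraries spread more than the aging libraries, and the log2 fold change was 1.10 ± 0.27 with an edgeR adjusted p of 0.039. Pcdhb10 (ENSMUSG00000045657) measured 0.75, 0.73 and 0.79 FPKM in control and 1.17, 1.68 and 1.22 FPKM in aging libraries. It passed the threshold narrowly, at a log2 fold change of 0.88 ± 0.24 and an edgeR adjusted p of 0.0494.

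Averaged over all 6 libraries, Pcdhb12 and Pcdhb14 had the highest FPKM of the beta array, and both missed the threshold. Pcdhb14 had 3.15, 3.45 and 3.54 FPKM in control and 3.99, 4.37 and 4.19 FPKM in aging libraries. Although its groups were separate, its log2 fold change was small, at 0.34 ± 0.10, and the edgeR adjusted p was 0.0577. Pcdhb12 had 2.12, 2.77 and 3.65 FPKM in control and 4.63, 4.91 and 4.19 FPKM in aging libraries, with a log2 fold change of 0.71 ± 0.21 and an edgeR adjusted p of 0.064. Pcdhb17, which had the highest mean FPKM of the array in the control libraries, at 3.42, had 2.94, 3.34 and 3.98 FPKM in control and 2.12, 2.3 and 2.8 FPKM in aging libraries. Its FPKM values were separate but its CPM values overlapped, and the edgeR adjusted p was 0.126.

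Other named beta genes of this stretch did not pass the test. Pcdhb16 gave a log2 fold change of -0.34 (edgeR adjusted p 0.249), Pcdhb18 of -0.11 (0.762), Pcdhb20 of 0.01 (0.96) and Pcdhb22 of -0.29 (0.329). Pcdhb3, at 0.06 to 0.41 FPKM, had a log2 fold change of -0.93 ± 0.54 that did not pass the test (edgeR adjusted p 0.275). The genes at the start of the array were near the detection limit, and Pcdhb1 and Pcdhb2, with at most 5 counts in any library, were not tested.

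**Figure D2:**
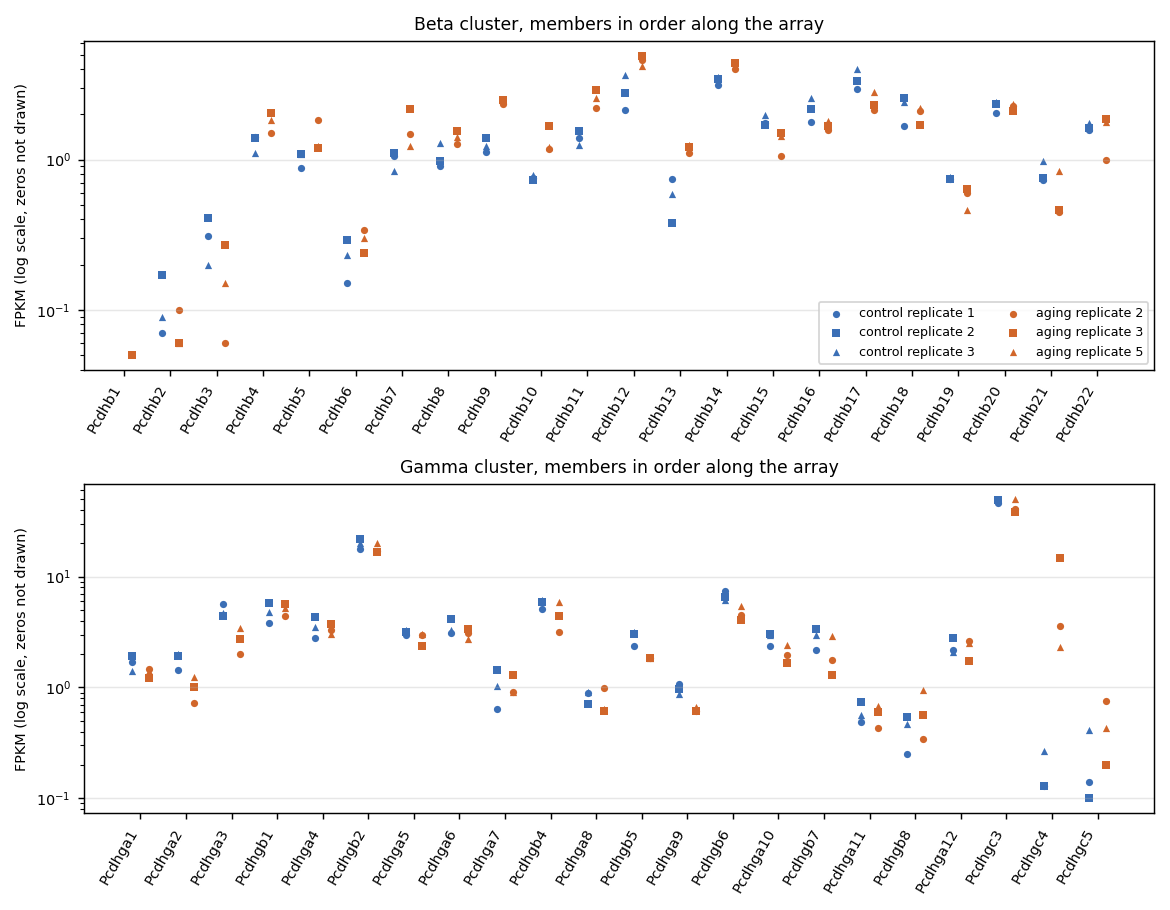
FPKM on a log scale for every beta and gamma gene in array order, with 1 point for each library and values of 0 not drawn. Pcdhgc3 lies highest at 38.49 to 49.97 FPKM, the beta genes from Pcdhb9 to Pcdhb14 have separate groups, and Pcdhgc4 spans 0.13 to 14.84 FPKM.

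In the gamma array, the A-type and B-type genes were mostly lower in the aging libraries, by small amounts. All 12 A-type genes and 5 of 7 B-type genes had a negative log2 fold change, against 50.7% of all tested genes, and the median over these 19 genes was -0.16. Across the alternatives run, 13 to 19 of the 19 were negative, with the fewest without control replicate 2. Their summed FPKM was 64.37, 76.3 and 70.63 in control and 54.19, 55.44 and 64.92 in aging libraries. The groups overlapped by the highest aging and the lowest control library, and the log2 ratio of the means was -0.28.

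Pcdhga3 (ENSMUSG00000104346) was the only A-type or B-type gene past the threshold. Its FPKM was 5.68, 4.38 and 4.7 in control and 2, 2.76 and 3.44 in aging libraries, and the groups did not overlap. The log2 fold change was -0.80 ± 0.21 with an edgeR adjusted p of 0.0452. Its neighbour Pcdhga2 had 1.45, 1.91 and 2.01 FPKM in control and 0.73, 1.01 and 1.24 FPKM in aging libraries. The groups were separate there too, but the log2 fold change of -0.81 ± 0.25 had an edgeR adjusted p of 0.0707. Pcdhgb6 had 7.48, 6.5 and 6.12 FPKM in control and 4.51, 4.03 and 5.43 FPKM in aging libraries, with a log2 fold change of -0.48 ± 0.14 and an edgeR adjusted p of 0.0595.

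Pcdhgb2 was the most abundant variable member of the gamma array per length, and its groups overlapped. It measured 17.89, 21.65 and 20.23 FPKM in control and 17.09, 16.68 and 19.94 FPKM in aging libraries, and it held 15.3 to 17.2% of gamma FPKM in every library. Its log2 fold change was -0.12 ± 0.12 (edgeR adjusted p 0.557). Pcdhgb4 varied more within the aging group, at 3.16, 4.42 and 5.94 FPKM against 5.05, 5.93 and 6.11 FPKM in control, with a log2 fold change of -0.30 ± 0.24 (edgeR adjusted p 0.433). Pcdhgb1, Pcdhga4 and Pcdhga6 had log2 fold changes of 0.11, -0.08 and -0.16 and overlapping groups.

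**Figure D3:**
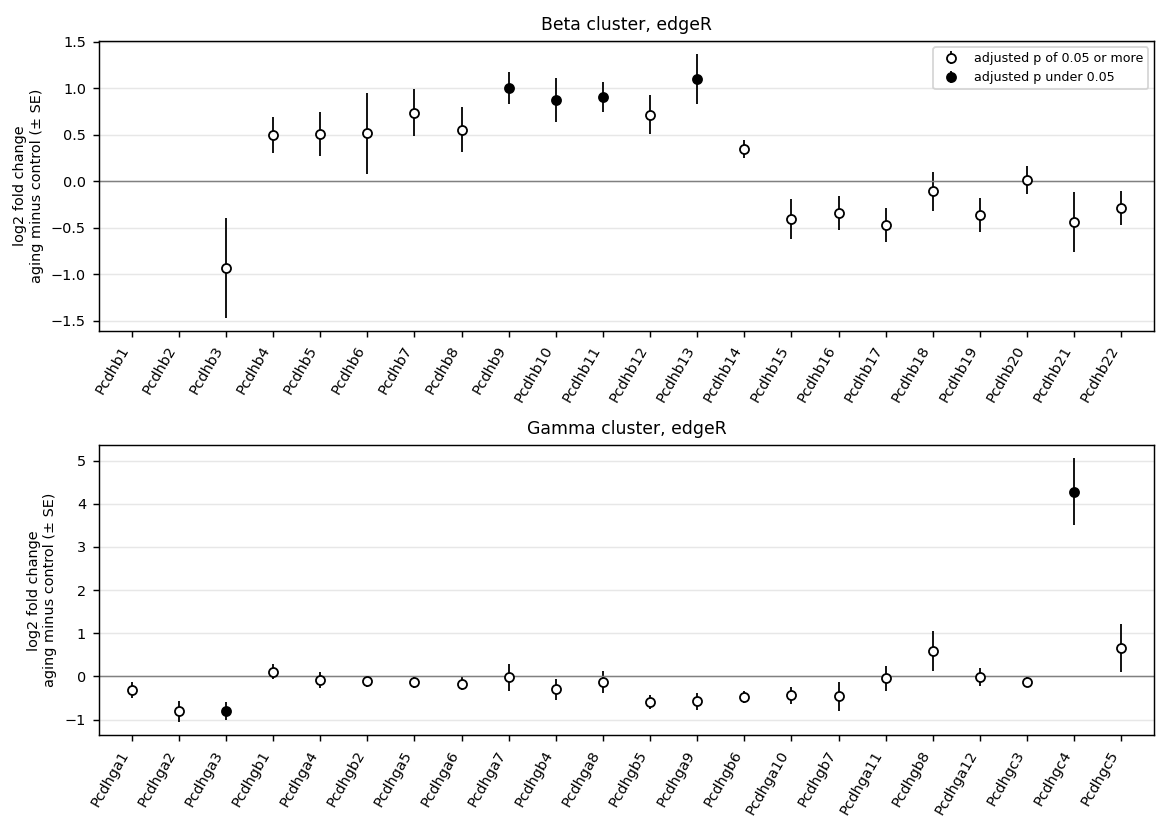
edgeR log2 fold change (aging minus control) ± SE for the beta and gamma genes in array order, with filled points for an adjusted p under 0.05. The points from Pcdhb4 to Pcdhb14 lie above 0, all A-type gamma points lie below it, and Pcdhgc4 stands at 4.28.

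The C-type gamma genes behaved differently from each other. Pcdhgc3 (ENSMUSG00000102918) was the most abundant clustered protocadherin in every library. Its FPKM was 46.47, 49.36 and 48.79 in control and 40.59, 38.49 and 49.97 in aging libraries, and aging replicate 5 exceeded all control libraries. The log2 fold change was -0.12 ± 0.13 (edgeR adjusted p 0.537), and the gene held 35.3 to 42.5% of gamma FPKM. Pcdhgc5, which lies last in the array, had counts of 11, 9 and 31 in control and 32, 16 and 36 in aging libraries, with overlap and an edgeR adjusted p of 0.456.

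Pcdhgc4 (ENSMUSG00000023036), a C-type gene known from mouse neurons for its part in the survival of interneurons, had the largest fold change of the family. Its counts were 10, 12 and 21 in control and 154, 577 and 127 in aging libraries, and its FPKM was 0.13, 0.13 and 0.27 against 3.57, 14.84 and 2.32. Every aging library exceeded every control library, with aging replicate 3 far above the other aging libraries. The log2 fold change was 4.28 ± 0.77, or 19.4-fold, with an edgeR adjusted p of 0.0197, and it was 3.24 without aging replicate 3.

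The Pcdhgc4 reads of the aging libraries were scaled by a shorter transcript than those of the control libraries. Dividing each count by its FPKM and the library total gives the transcript length used by the authors' scaling. That length was 4805, 5180 and 4861 bases in the control libraries, near the 5024 bases of the annotated full-length Pcdhgc4 transcript, and rounding of the low values allows 4396 to 5612 bases. In the aging libraries it was 2473, 2298 and 3063 bases, near the 2272 bases of a short annotated Pcdhgc4 transcript in replicates 2 and 3. The short transcript has a first exon of 153 bases, and 93.3% of its length consists of the constant exons shared by the gamma genes. A retained-intron transcript of 3100 bases is also annotated. Rounding allows 3044 to 3082 bases in aging replicate 5, near that length but below it, and any mixture of transcripts behind the 3063 bases cannot be resolved. If the remaining reads came from the transcript of 3100 bases or the one of 5024 bases, the short transcript took 75.7 to 92.7% of the Pcdhgc4 level in aging replicate 2, 96.8 to 99.1% in aging replicate 3 and 4.46 to 71.3% in aging replicate 5. Which exons the reads covered was not tested, since only gene totals were used here.

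**Figure D4:**
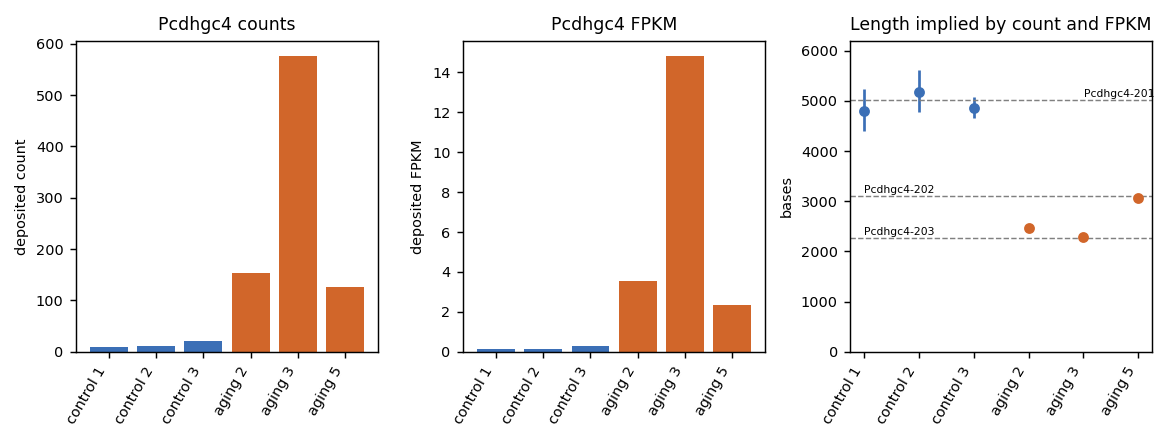
Pcdhgc4 counts, FPKM and the transcript length implied by their ratio in each library, with dashed lines at the annotated transcript lengths of 5024, 3100 and 2272 bases and bars for the rounding of count and FPKM. The control libraries lie at 4805 to 5180 bases and the aging libraries at 2298 to 3063 bases.

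The implied length of most members matched the annotation. Of 40 members with an FPKM of at least 0.5 in a library, 33 stayed within 5% of the annotated length in every such library. The other 7 were Pcdhb8, Pcdhb22, Pcdhga1, Pcdhga4, Pcdhga7, Pcdhgc4 and Pcdhgc5, named after their values were seen. For Pcdhb8 the length fell short in control replicate 3, at 1938 bases, and in aging replicate 5, at 2246 bases, against 3334 annotated, so its FPKM in those libraries is not on the same scale as in the others. For Pcdhb22 it was 5694, 5681 and 5460 bases in control and 5676, 4409 and 4627 bases in aging libraries, against 6609 annotated. Its FPKM in aging replicates 3 and 5, at 1.85 and 1.79, exceeded every control library. Its mean CPM was 9.12 in control and 7.47 in aging libraries. These Pcdhb22 values enter the summed beta FPKM.

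Over the whole family, 6 of 42 tested members passed the threshold of 0.05, beside 12.8% of all tested genes. Pcdhb9, Pcdhb10, Pcdhb11, Pcdhb13 and Pcdhgc4 were called higher, beside 7.22% of all tested genes called higher. Pcdhga3 was called lower, beside 5.59%. The groups did not overlap in CPM for 18 of the 42, 11 higher and 7 lower, beside 38% of all tested genes. The family was chosen with this contrast known, so nothing is read from these counts.

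Each of the 6 calls was lost when some library was left out. Without control replicate 2 or control replicate 3, no member passed the edgeR threshold, beside 268 and 458 of all genes called. In those fits 14 and 13 members had an unadjusted edgeR p under 0.05. How many of all genes did so was not computed, so nothing is read from these 2 numbers. Without control replicate 1, Pcdhb9 was the only one of the 6 that passed. Pcdhb10 and Pcdhb13 lost their calls on leaving out any 1 library, with adjusted p of 0.0543 to 0.148. Pcdhgc4 lost its call without any 1 control library, at adjusted p of 0.0726, 0.0887 and 0.064 in order of replicate, and kept it without any 1 aging library. Pcdhga3 kept its call only without aging replicate 5, and Pcdhb11 lost its call without aging replicate 3 as well as without any control library.

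The order of the members by level was similar in all libraries. Over the 22 beta genes, Spearman's rho of FPKM between pairs of libraries was 0.894 to 0.979 within groups and 0.761 to 0.914 between groups. Over the 22 gamma genes it was 0.872 to 0.987 within groups and 0.744 to 0.933 between groups. These are descriptions across genes, which share library, depth and transcript lengths and are not replicates.

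The authors' deposited table gave its own group means, which did not match the 3 libraries of each group. The authors' deposited table lists a control mean of 3.23 FPKM for Pcdhgc4, above every control library, and an aging mean of 6.094. All 16813 control means and all 16960 aging means above 0.001 in the authors' deposited table are whole multiples of 0.002 within 0.001 steps, as means of 5 values with 2 decimals would be. Read as means of 5 values, the authors' deposited table leaves 15.62 FPKM in control and 9.74 FPKM in aging for Pcdhgc4 as the sum of the 2 values beyond the libraries analysed here. That remainder is higher in control than in aging, the reverse of the 3 libraries, and the authors' deposited table gives the gene a log2 fold change of 0.92 with an FDR of 0.649.

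The same remainder was taken for the other members, as a description with no test, since it has no spread of its own. On the scale of log2(FPKM + 0.1), the remainder of the authors' deposited table was lower in aging for 15 of the 19 A-type and B-type gamma genes, with a median of -0.52. For Pcdhb15 to Pcdhb22 the remainder of the authors' deposited table was lower for 8 of 8 genes, with a median of -0.51, and for Pcdhb4 to Pcdhb14 it was higher for 8 of 11 genes, with a median of 0.25. Over all tested genes 42.3% of these remainders were lower, with a median of 0.08. The authors' deposited table calls 10 members at an FDR under 0.05, beside 14.3% of all its genes and 23.5% of the genes tested here, and all 10 are among the 42 tested members. Higher in the authors' deposited table were Pcdhb9 and Pcdhb11, and lower were Pcdhb17, Pcdhga1, Pcdhga2, Pcdhga3, Pcdhga9, Pcdhgb4, Pcdhgb5 and Pcdhgb6.

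**Figure D5:**
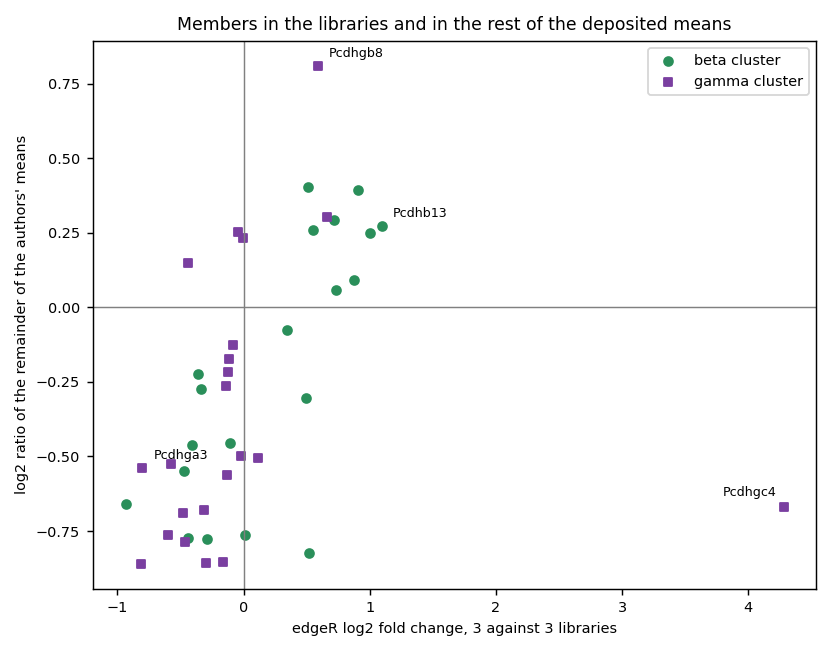
edgeR log2 fold change from the 3 against 3 libraries (horizontal) and log2 ratio of the remainder of the authors' group means (vertical) for the 42 tested members, aging over control in both. Pcdhgc4, at 4.28 on the horizontal axis, lies at -0.67 on the vertical axis, and Pcdhb13 and Pcdhga3 keep their sides. The sign is the same on both axes for 33 of the 42 members (78.6%), beside 69.4% of all tested genes. It is the same for 5 of the 6 called members, beside 90.8% of all called genes.

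Among protocadherins and large cadherins outside the arrays, 19 genes were listed and 11 passed the filter. By edgeR 4 of these were called lower and none higher, beside 5.59% and 7.22% of all tested genes. Pcdh17, a delta-type protocadherin, had 16.25, 16.68 and 16.64 FPKM in control and 9.31, 7.29 and 10.42 FPKM in aging libraries. The groups were separate, with a log2 fold change of -0.83 ± 0.14 and an edgeR adjusted p of 0.0132. The giant atypical cadherins Fat1 and Fat4 had log2 fold changes of -0.94 ± 0.16 and -0.72 ± 0.15 (edgeR adjusted p 0.0143 and 0.0239), and the planar polarity cadherin Celsr2 had -1.16 ± 0.29 (0.0418). Pcdh12, the protocadherin of vascular endothelium, named for that role, was abundant at 68.55 to 103.03 FPKM and was not called (log2 fold change 0.27 ± 0.13, edgeR adjusted p 0.209).

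Of 18 genes for promoter choice and silencing of the arrays, all passed the filter, 2 were called lower and none higher, beside 5.59% and 7.22% of all tested genes. The zinc finger gene Wiz, whose protein binds with CTCF and cohesin, had a log2 fold change of -0.38 ± 0.09 (edgeR adjusted p 0.0301). The de novo DNA methyltransferase gene Dnmt3a had -0.41 ± 0.10 (edgeR adjusted p 0.0325). Lrif1 and Smchd1, which act together in silencing on the inactive X chromosome, had 0.31 ± 0.09 and 0.17 ± 0.07 and were not called (edgeR adjusted p 0.0675 and 0.156). Ctcf, named for its role at the promoters, had 0.04 ± 0.08 (edgeR adjusted p 0.769).

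Of 12 partners of the intracellular domains, 10 passed the filter, 1 was called lower and none higher, beside the same shares of 5.59% and 7.22%. This was Ptk2, the gene of focal adhesion kinase, which the constant domain of the gamma proteins binds, at a log2 fold change of -0.38 ± 0.10 (edgeR adjusted p 0.0445). The sheddase gene Adam10 had -0.20 ± 0.08 and was not called (edgeR adjusted p 0.135). Of the 4 classical cadherins, N-cadherin (Cdh2) was called lower at -1.53 ± 0.40 (edgeR adjusted p 0.0479), with 27 to 34 counts in control and 5 to 15 in aging libraries. VE-cadherin (Cdh5), the endothelial adherens junction cadherin, stood at -0.13 ± 0.10 (edgeR adjusted p 0.405). Without control replicate 3 all 8 calls of these 4 lists were lost (edgeR adjusted p 0.052 to 0.137), and without control replicate 2 all but that of Fat1. Without control replicate 1 or without aging replicate 3, 5 of the 8 were lost, and without aging replicate 2 or without aging replicate 5, 3 were lost.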

How the data were processed

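Per the labels' protocols, RNA was extracted with Trizol, selected on oligo(dT) beads and made into libraries with a NEBNext Ultra kit. The submitters' processing notes name RSEM, HISAT2, Bowtie2, StringTie 1.3.1 and fastp 0.18.0 without roles. The sources used here give no genome build, annotation or strand setting, and coordinates are left out. Per the file headers, the deposited table holds a count and an FPKM value for each of the 6 libraries. The group mean is a score made by the authors, and the FDR, p-value and log2 fold change columns hold the authors' own comparison. These are used only where named.

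Counts of 13096 genes kept by filterByExpr (minimum count 10, minimum total 15) were tested in R 4.3.3 by edgeR 4.0.16 (TMM scaling, robust quasi-likelihood test, Benjamini-Hochberg adjustment over all tested genes, threshold 0.05), and the procedure was tested on simulated data. CPM uses TMM-scaled totals. DESeq2 1.42.0 and limma 3.58.1 on log2(FPKM + 0.1) and log2(FPKM + 1), other scalings, no filter, a replicate block and each library left out served as alternatives. The authors' group means were compared with the libraries by arithmetic alone. GENCODE M21 holds all 58 member identifiers, and its transcripts gave lengths and shared exons; the symbol Pcdha11 occurs on 2 identifiers. Replicate libraries differed by more than sampling noise, with a chi-square per degree of freedom of 8.42 to 54.9. Intervals are not given for counts, since replicate spread was used. Members named with values are all past the threshold, the 8 of highest CPM and the 3 of largest log2 fold change in each array, and the C-type genes. The members and all gene lists were chosen with earlier results of these data known.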

Additional observations from a re-analysis of the deposited data

Results flagged for a closer look

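The authors' deposited table lists a control mean of 3.23 FPKM for Pcdhgc4, while the 3 control libraries lie at 0.13, 0.13 and 0.27 FPKM. It was picked out because the mean, which did not enter the edgeR comparison of the 6 libraries, lies above each of the 3 control libraries. What the values beyond the 3 libraries were was not tested.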

How the results depend on the processing

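The number of members called was 6 by edgeR, 11 with DESeq2 (7 higher, 4 lower) and 3 with limma on log2(FPKM + 0.1). Over all tested genes the numbers were 1678 (12.8%), 2348 (17.9%) and 1401 in that order. When 1 library was left out, 0 to 6 members were called, beside 268 to 2121 of all genes. At an unadjusted p under 0.05 the members numbered 15 by edgeR, 15 by DESeq2 and 13 by limma on log2(FPKM + 0.1). The share of all genes at that unadjusted threshold was not computed, so nothing is read from these member numbers. The log2 ratio of the summed gamma FPKM, -0.13, was -0.28 without the C-type members and -0.23 without Pcdhgc4, the latter chosen after seeing the data. Of the members named by the rule, direction turned for 4 with log2 fold changes near 0. With 1 library left out, Pcdhb18 ranged from -0.289 to 0.0232, with 0.0108 without aging replicate 3. Pcdhb20 was -0.0306 with upper-quartile scaling, -0.0218 with total counts only, -0.018 and -0.0135 with limma at the pseudocounts 0.1 and 1, and -0.128 with the replicate block, and ranged from -0.0746 to 0.0777 with 1 library left out. Pcdhgb1 ranged from -0.0412 to 0.28 with 1 library left out and was -0.0835 with the replicate block. Pcdhga4 ranged from -0.267 to 0.111 with 1 library left out. The cause of these changes was not tested. Pcdhb4 to Pcdhb14 were higher for 11 of 11 genes under every alternative run, Pcdhb15 to Pcdhb22 were lower for 6 to 8 of 8, and the A-type and B-type gamma genes for 13 to 19 of 19. Control and aging libraries share the numbers 2 and 3. Deviations of same-numbered libraries from their group means had correlations of -0.06 and -0.04, against -0.25 to 0.24 for the other pairs. Deviations within a group of 3 libraries are tied to each other, so these values cannot decide whether same-numbered libraries were paired. With the replicate number as a block, control replicate 1 and aging replicate 5 have no partner. That contrast therefore rests on replicates 2 and 3 of each group, with 1 residual degree of freedom. It called 9 members (1 higher, 8 lower), beside 1698 (13%) of all tested genes, and it gave the 19 of 19 for the gamma genes. Array sums were also taken over only the members that passed the filter. No alpha gene passed it, so that alternative gave no value for the alpha sum. Low counts kept the alpha genes from being tested, and 3 libraries in each group limit every call.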
